A study of Mus musculus with 15 samples.

Results

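Type I interferon response genes are the interferon receptors, the kinases and transcription factors that relay their signal, and the antiviral genes that these factors switch on. Of 39 such genes listed, 37 were among the 17447 genes of the count table, and Mx1 and Mx2 were not analysed here. A gene was kept when it had 10 or more counts in 3 or more libraries over all 5 groups, and all 37 met this rule. The level of counts thus chose the members, and so did the list itself. Oas3 lay nearest the limit, with 74, 64 and 37 counts in the sham libraries and 0 to 7 in the other 12 libraries. It met the rule through the sham group alone, so it had to differ between groups and its difference carries no weight. The other 36 genes had at least 13 counts in every library, and no listed gene of the table fell short of the limit.

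Heart RNA was sequenced from 15 male C57BL/6J mice, 3 in each of 5 groups, aged 6 to 8 weeks at the start and killed 18 weeks after surgery. WTSHAM mice were wild type and had sham surgery, and the methods name no virus for them. The 4 other groups had chronic kidney disease (CKD) after subtotal nephrectomy in 2 steps, and received a tail vein injection 2 weeks after the second step. WTCKD mice were wild type and KOCKD mice were Rnls-/- (renalase knockout by TALEN), and both received an empty vector. WTCKD+RNLS and KOCKD+RNLS mice received AAV9-cTnT-Rnls, which expresses renalase from a troponin T promoter and so in cardiomyocytes. No knockout sham group was analysed here. Nephrectomy, the injection and anything else that set WTSHAM apart therefore cannot be told apart in what follows. Rnls was not analysed here, so the genotype was not checked in these libraries. The column names of KOCKD+RNLS resemble those of wild-type libraries, and whether their labels are right was not tested. Cardiomyocyte markers (7 of 7 detected) summed to 80990 to 91009 CPM in WTSHAM, 81188 to 94526 in WTCKD and 81623 to 87107 in KOCKD. The sum was 101849 to 108887 CPM in WTCKD+RNLS and 95119 to 98196 in KOCKD+RNLS. Both virus groups thus stood above their vector groups in this sum, although 4 of the 7 markers had lower values in KOCKD+RNLS than in KOCKD. CPM is a gene's count set against the TMM-scaled size of its library, and the library totals ran from 10480788 to 13424078 counts.

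Type I interferons bind the receptor made of IFNAR1 and IFNAR2, which activates the kinases JAK1 and TYK2. These phosphorylate STAT proteins, STAT2 among them, which join IRF9 and bind a DNA element called the interferon-stimulated response element (ISRE). The induced genes block viral entry, translation and genome copying, and some of them (STAT2, IRF7, IRF9 and the RNA sensors) carry the signal themselves, so that the response feeds itself. Resting tissues, the heart included, express these genes at a low tonic level.

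In WTCKD hearts, 30 of the 37 genes were lower than in WTSHAM hearts and 0 were higher, with calls made at an adjusted p under 0.05. Of all 13021 genes tested, 1.70% were lower by the same rule. The median log2 fold change was -1.36 over the 37 genes and -0.01 over all genes tested. Without Oas3, 29 of 36 genes were lower with a median log2 fold change of -1.35, and the fold among the 29 ran from 1.46 (Samhd1) through a median of 3.15 to 7.44 (Irf7). Irf7 had the smallest p of all genes tested, and 10 of the 20 smallest belonged to the 37 genes. Of the 221 genes that were lower, these 30 made up 13.6%. Each of the 3 WTSHAM libraries stood above each of the 12 CKD libraries for 27 of the 37 genes, a pattern that 2.70% of all genes tested showed. Oas3, which had to differ, was among these 27. The receptors and their kinases were not among the genes that differed. Because hearts were sequenced whole, fewer cells of a type and less RNA per cell cannot be told apart.

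**Figure D1:**
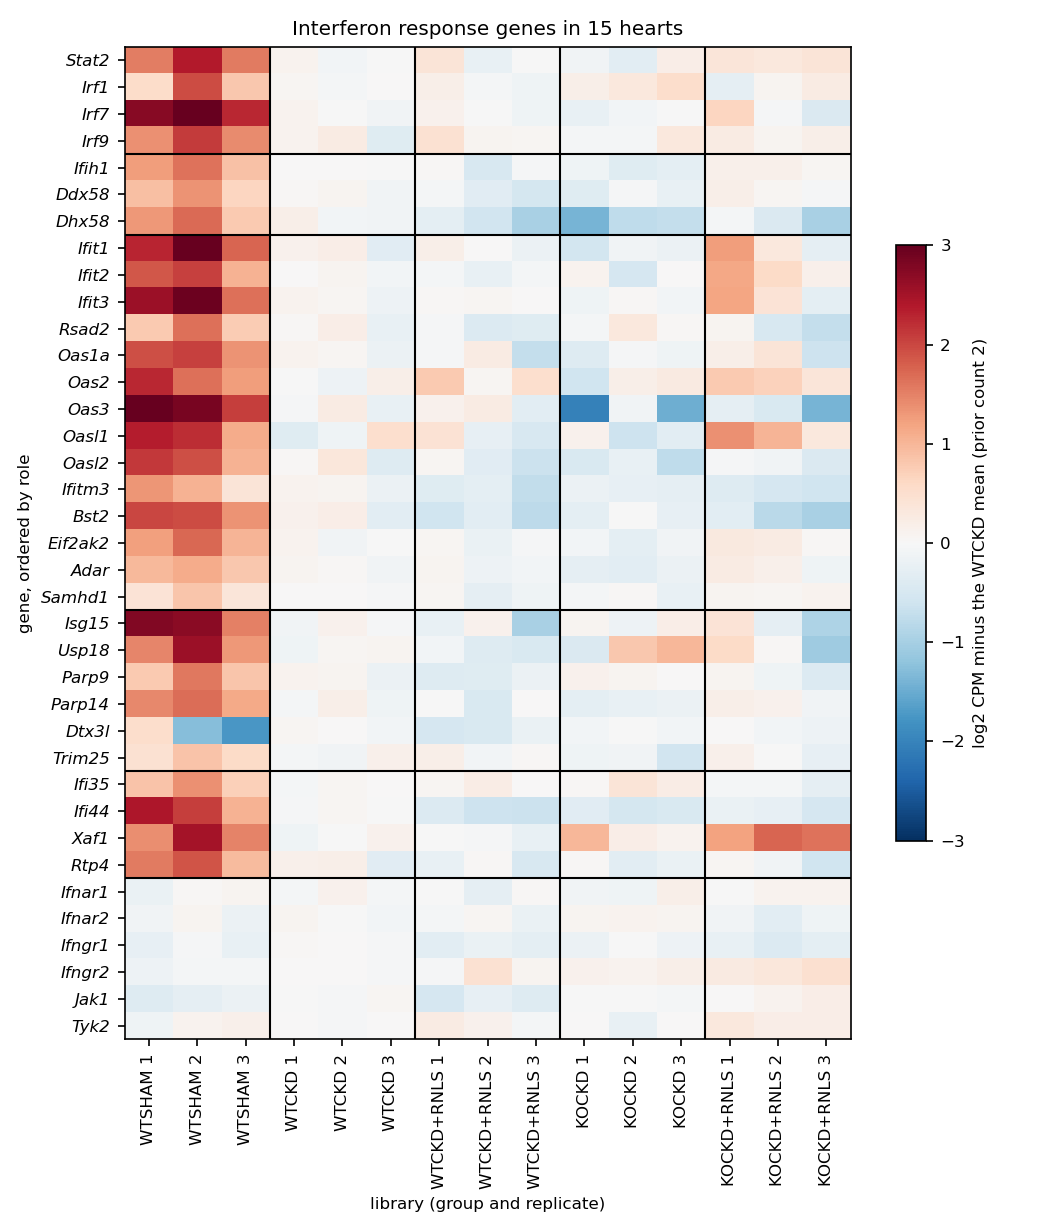
Each row is 1 of the 37 genes, grouped by role between horizontal lines (transcription factors, RNA sensors, antiviral effectors, ISG15, ubiquitin and ADP-ribose genes, other induced genes, receptors and kinases), and each column is 1 library. Colour gives the log2 CPM minus the mean of the 3 WTCKD libraries, and values past 3 take the end colour. The 3 WTSHAM columns are red in all blocks but the lowest, apart from Dtx3l, while the other CKD columns stay near the WTCKD level for most genes, with Xaf1 in KOCKD+RNLS as a clear exception.

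Promoter sequence was looked up because these genes moved together. RefSeq promoters (build GRCm38.p6, 250 bases before to 50 after the start of the gene) were found for 31 of the 37 genes and not for Usp18, Oas2, Dhx58, Parp9, Parp14 and Rtp4. The core of the ISRE, written GAAANNGAAA and searched on both strands, occurred in 12 of the 31 (38.7%), against 3.99% of 27025 genes and 3.44% of 32851 promoters. In 8 of the 12 all matches lay before the start of the gene. In the other 4 (Ifih1, Ddx58, Ifitm3 and Eif2ak2) all matches lay after it. All 12 were among the 24 matched genes that were lower in WTCKD, and 0 of the 7 others had the ISRE core. The list was chosen as genes of the interferon response, so a share above that of all genes follows in part from this choice. The 7 others are Dtx3l and the receptor and kinase genes, so the split largely restates the list. Oas3, whose difference carries no weight, is among the 12. A second motif searched on both strands, TTCNNNGAA, occurred in 11 of the 31 (35.5%), against 9.55% of all genes and 8.30% of promoters. It was in 9 of the 24 lower genes and in 2 of the 7 others (Ifnar1 and Ifnar2). Windows around the ISRE letters are shown for 6 genes in which they lie before the start, with the matches in capitals, on the strand of the gene. Capitals that read TTTC are matches on the other strand.
Ifit1: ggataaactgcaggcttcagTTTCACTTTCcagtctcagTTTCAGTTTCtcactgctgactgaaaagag
Ifit3: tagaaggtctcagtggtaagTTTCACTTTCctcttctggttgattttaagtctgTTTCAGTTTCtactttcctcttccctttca
Isg15: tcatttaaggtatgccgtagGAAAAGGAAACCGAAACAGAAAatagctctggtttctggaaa
Bst2: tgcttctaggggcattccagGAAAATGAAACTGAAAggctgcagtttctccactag
Stat2: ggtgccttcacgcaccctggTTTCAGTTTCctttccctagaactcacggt
Oas1a: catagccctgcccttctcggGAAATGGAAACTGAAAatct
These lie at chr19:34640765-34640833 (plus strand, Ifit1), chr19:34583353-34583436 (plus, Ifit3), chr4:156200855-156200916 (minus, Isg15), chr8:71537567-71537622 (minus, Bst2), chr10:128270256-128270305 (plus, Stat2) and chr5:120907526-120907565 (minus, Oas1a). Isg15 held 3 overlapping matches, and Ifit1, Ifit3, Bst2 and Oas1a held 2 each. A match describes letters and does not show that a factor binds there.

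Interferon genes themselves could hardly be read from these data. Of 10 ligand genes listed, only Ifng, the type II interferon, was in the table, with 0 to 4 counts per library and too few to test. The level of the other ligand genes, type I interferons among them, is therefore not known here. Type I receptor subunits did not pass the test in any comparison. Ifnar1 stood at 32.1 ± 3.06 CPM (SD, n = 3) in WTSHAM and 32.7 ± 2.38 in WTCKD, with group means of 30.9 to 34.3 in the other CKD groups. Its partner Ifnar2 stood at 38.2 ± 3.49 in WTSHAM and 39.9 ± 2.26 in WTCKD. With the virus Ifnar2 had 35.1 ± 2.86 CPM in KOCKD+RNLS against 42.5 ± 0.595 in KOCKD, without overlap (log2 fold change -0.27 ± 0.09, adjusted p = 0.0568). It passed with offsets for gene length (adjusted p = 0.0312). The log2 differences from WTSHAM of the 6 receptor and kinase genes in WTCKD ran from -0.04 to 0.27, and none passed the test. Jak1, which serves type I and type II receptors, came closest, with 205, 223 and 235 CPM in WTSHAM and 266, 259 and 277 in WTCKD. All 3 WTCKD libraries were higher, by a log2 difference of 0.27 ± 0.08 (SE, adjusted p = 0.0921 by edgeR), while DESeq2 gave an adjusted p of 0.0257. Tyk2, the other kinase of the type I receptor, had a mean of 21.8 ± 2.06 CPM in WTSHAM and 21.2 ± 0.383 in WTCKD. The type II receptor genes Ifngr1 and Ifngr2 also missed the threshold in WTCKD, at 60.3 ± 5.29 against 67.7 ± 1.59 and 196 ± 7.37 against 207 ± 3.04 CPM.

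All 4 transcription factors were lower in WTCKD. Irf7, the factor that amplifies the type I response, stood at 113, 179.7 and 81.3 CPM in WTSHAM replicates 1 to 3 and at 18.1, 16.5 and 15.6 in WTCKD. Its level was 18.3, 16.5 and 15.2 in WTCKD+RNLS, 14.2, 15.8 and 16.7 in KOCKD, and 26.4, 16.4 and 12.3 in KOCKD+RNLS. No CKD library came near the lowest sham library. The log2 fold change in WTCKD was -2.90 ± 0.26 (SE, 7.44-fold lower, adjusted p = 9.36e-05). Stat2, a partner of IRF9 in the factor that binds the ISRE, had 51.6, 92.9 and 52.6 CPM in WTSHAM and 19.0, 16.8 and 17.5 in WTCKD. Its values were 23.1, 15.1 and 17.5 in WTCKD+RNLS, 16.4, 14.2 and 20.5 in KOCKD, and 23.0, 22.3 and 23.3 in KOCKD+RNLS. The groups did not overlap with sham, and the change in WTCKD was -1.88 ± 0.21 (3.69-fold lower, adjusted p = 0.000229). Irf9, the DNA-binding subunit of that factor, went from 56.3 ± 17.1 to 17.9 ± 3.84 CPM (log2 fold change -1.66 ± 0.20, adjusted p = 0.000432). Irf1, which type II interferon also induces, went from 56.3 ± 31.4 to 23.8 ± 1.13 CPM (-1.24 ± 0.26, adjusted p = 0.0201). WTSHAM replicate 2 alone had 92.3 CPM of Irf1, against 34.8 and 41.8 in the other two.

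The 3 cytosolic RNA sensors were lower in WTCKD as well. Ifih1 encodes MDA5, the sensor of long double-stranded RNA, and stood at 35.4, 46.1 and 27.1 CPM in WTSHAM against 14.8, 14.7 and 14.5 in WTCKD. It read 15.1, 10.5 and 14.2 CPM in WTCKD+RNLS, 13.5, 11.4 and 12 in KOCKD, and 16.4, 16.4 and 15.4 in KOCKD+RNLS. Every CKD library was below every sham library, and the change in WTCKD was -1.30 ± 0.17 on the log2 scale (adjusted p = 0.000662). Ddx58, which encodes RIG-I, the sensor of RNA with a free 5′ triphosphate, had 43.2 ± 10.8 CPM in WTSHAM and 21.6 ± 1.48 in WTCKD (-1.0 ± 0.16, adjusted p = 0.00281). Dhx58, which encodes LGP2, a regulator of both, had 8.43 ± 2.66 and 3.30 ± 0.363 CPM (-1.35 ± 0.29, adjusted p = 0.02).

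Leaving aside Oas3, the 13 antiviral effectors measured were all lower in WTCKD, with a median log2 fold change of -1.75. IFIT proteins bind viral RNA and block its translation, and Ifit3 stood at 84.0, 109 and 44.2 CPM in WTSHAM against 14.9, 14.6 and 12.4 in WTCKD. Its CPM was 14.4, 14.4 and 13.9 in WTCKD+RNLS, 12.7, 14.3 and 13.1 in KOCKD, and 31.6, 18.7 and 11.3 in KOCKD+RNLS. KOCKD+RNLS replicates 1 and 2 were the highest CKD libraries, still below all sham libraries, and the change in WTCKD was -2.50 ± 0.31 (5.65-fold lower, adjusted p = 0.000584). Ifit1 (55.3 ± 24.8 to 10.1 ± 2.01 CPM, -2.45 ± 0.34, adjusted p = 0.0012) and Ifit2 (64.1 ± 21.2 to 19.5 ± 1.18 CPM, -1.72 ± 0.25, adjusted p = 0.00154) were lower in WTCKD as well. The highest KOCKD+RNLS library of Ifit2, at 43.4 CPM, lay above the lowest sham library, at 40.4. Bst2, or tetherin, holds budding virus on the cell surface and stood at 87.1, 84.3 and 55.3 CPM in WTSHAM against 23.5, 24.6 and 17.2 in WTCKD. It had 14.3, 17.2 and 12.5 CPM in WTCKD+RNLS, 17.5, 21.2 and 18.1 in KOCKD, and 17.1, 12.2 and 11.0 in KOCKD+RNLS. No CKD library was above 24.6 CPM, and the change in WTCKD was -1.80 ± 0.19 (3.47-fold lower, adjusted p = 0.000205).

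OAS enzymes make the second messenger that activates RNase L in response to double-stranded RNA, and the OASL proteins are their relatives. Oasl2 had 69.3, 60.6 and 32.9 CPM in WTSHAM and 16.2, 20.1 and 12 in WTCKD. Its values were 16.5, 12.4 and 9.95 in WTCKD+RNLS, 11.4, 13.4 and 9.27 in KOCKD, and 15.3, 14.7 and 11.7 in KOCKD+RNLS. The lowest sham library, replicate 3, remained above all CKD libraries, and the change in WTCKD was -1.75 ± 0.25 (adjusted p = 0.00155). Oas2 (-1.79 ± 0.26, adjusted p = 0.00155), Oas1a (-1.85 ± 0.28, adjusted p = 0.00196) and Oasl1 (-2.0 ± 0.37, adjusted p = 0.00791) were lower to a like degree. Oas3 rested on 5 to 7 counts per WTCKD library (-3.10 ± 0.51, adjusted p = 0.00363). Oas1a and Ifit3 have close copies in the mouse genome, such as Oas1g and Ifit3b, with which reads may have been shared, so their values are uncertain.

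Eif2ak2 encodes PKR, the kinase that stops translation on double-stranded RNA, and stood at 55.0, 78.1 and 48.1 CPM in WTSHAM against 25.3, 21.9 and 23.5 in WTCKD. In the other CKD groups it had 24.4, 20.6 and 22.8 (WTCKD+RNLS), 22.2, 19.3 and 21.8 (KOCKD), and 28.7, 27.9 and 24.2 CPM (KOCKD+RNLS). The WTCKD change was -1.36 ± 0.15 (2.56-fold lower, adjusted p = 0.000205). Adar, the enzyme that edits adenosine in double-stranded RNA and so hides it from the sensors, had 51.9, 57.1 and 46.4 CPM in WTSHAM and 27.8, 26.8 and 24.5 in WTCKD. It had 27.7, 23.7 and 24.7 in WTCKD+RNLS, 21.7, 21.2 and 23.4 in KOCKD, and 31.4, 29.1 and 23.9 in KOCKD+RNLS. Its sham libraries lay close together, and its change of -0.97 ± 0.11 (1.96-fold lower) had an adjusted p of 0.000251. The membrane protein gene Ifitm3, which blocks viral entry, went from 159 ± 48.8 to 81.7 ± 8.89 CPM (-0.96 ± 0.17, adjusted p = 0.00646). Rsad2, or viperin, went from 60.9 ± 23.1 to 28 ± 4.12 CPM (-1.12 ± 0.23, adjusted p = 0.016). Samhd1, which depletes deoxynucleotides, showed the smallest change of the 30, from 61.7 ± 11.5 to 42.3 ± 0.779 CPM (-0.54 ± 0.12, adjusted p = 0.0208).

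**Figure D2:**
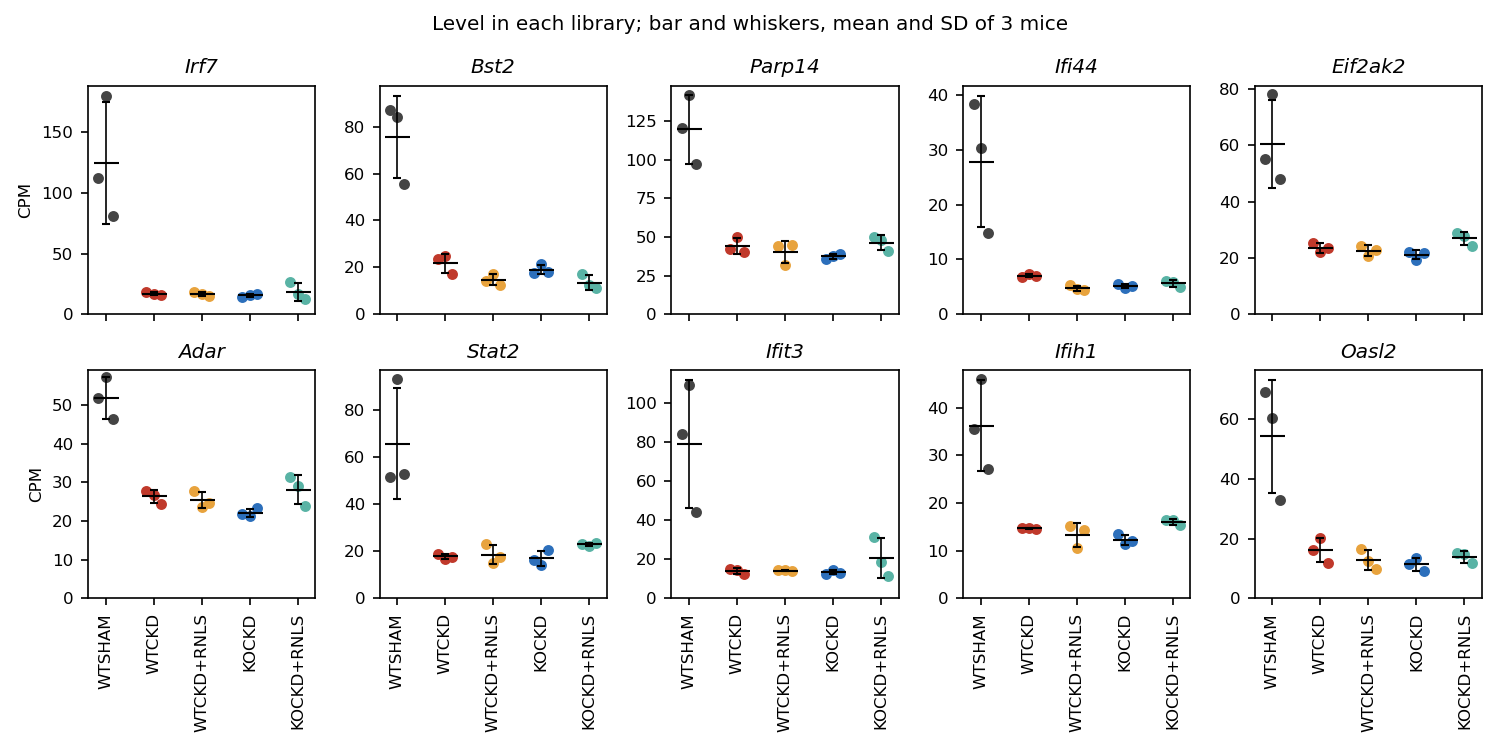
CPM on the vertical axis of each panel is shown for the 10 genes with the smallest p over all groups, with 1 point per library and a bar and whiskers for the mean and SD of 3 mice. Each axis starts at 0. All WTSHAM points lie above all points of the 4 CKD groups in each panel, and they are also the most spread.

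ISG15 is a ubiquitin-like protein that is attached to other proteins, and USP18 removes it and also damps the receptor. Isg15 went from 22.9 ± 9.56 CPM in WTSHAM to 4.10 ± 0.359 in WTCKD (-2.48 ± 0.35, 5.58-fold lower, adjusted p = 0.00131). Usp18 went from 22.2 ± 11.5 to 5.87 ± 0.474 CPM (-1.92 ± 0.40, adjusted p = 0.0167). Parp14, an ADP-ribosyltransferase, had 121, 142 and 97.1 CPM in WTSHAM and 42.4, 50.2 and 40.4 in WTCKD. It had 44.0, 32.1 and 44.9 in WTCKD+RNLS, 35.8, 37.9 and 39.1 in KOCKD, and 50.1, 48.1 and 40.8 in KOCKD+RNLS. No CKD library was above 50.2 CPM, and the WTCKD change was -1.43 ± 0.14 (2.70-fold lower, adjusted p = 0.000142). Parp9 (-1.12 ± 0.18, adjusted p = 0.00285) and the ubiquitin ligase gene Trim25 (-0.65 ± 0.14, adjusted p = 0.0217), which acts on RIG-I, were also lower.

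Dtx3l, whose product is the ubiquitin ligase partner of PARP9, went its own way. It stood at 44.9, 12.6 and 9.05 CPM in WTSHAM, against 32.2, 31.4 and 29.2 in WTCKD and 21.8 to 31.4 over the other 9 libraries. WTSHAM replicate 1 was thus above all CKD libraries and replicates 2 and 3 below all of them. The column names split WTSHAM in the same way. Replicate 1 has a prefix that several CKD libraries share, and replicates 2 and 3 have a prefix that no other library has. The labels do not say what these prefixes mean, and their bearing on Dtx3l was not tested. Its log2 fold change in WTCKD was 0.49 ± 0.37 (adjusted p = 0.538), and 1.51 without WTSHAM replicate 1 (adjusted p = 2.1e-05). In the mm9 annotation Dtx3l shares 458 exon bases with Parp9, which lies on the opposite strand. The libraries came from a stranded kit, but whether strand was used in counting was not given in the sources used here.

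Other induced genes moved like the effectors. Ifi44, a cytoplasmic protein gene, had 38.4, 30.5 and 14.8 CPM in WTSHAM and 6.85, 7.35 and 6.98 in WTCKD. It had 5.26, 4.55 and 4.44 in WTCKD+RNLS, 5.51, 4.85 and 5.08 in KOCKD, and 6.09, 5.87 and 4.97 in KOCKD+RNLS. WTSHAM replicate 3 was nearest to the CKD range but above it, and the WTCKD change was -1.98 ± 0.25 (3.94-fold lower, adjusted p = 0.000584). Xaf1, a proapoptotic gene, went from 34.8 ± 16 to 9.34 ± 0.838 CPM (-1.90 ± 0.28, adjusted p = 0.00183). Rtp4, a chaperone for receptors, went from 29.2 ± 9.19 to 10.2 ± 2.02 CPM (-1.51 ± 0.23, adjusted p = 0.00208). Ifi35 went from 33.6 ± 8.55 to 16.7 ± 0.689 CPM (-1.01 ± 0.15, adjusted p = 0.00195). In the mm9 annotation Ifit1, Ifit2 and Ifit3 neighbour each other on chromosome 19, Oas1a, Oas2 and Oas3 on chromosome 5, and Parp9, Dtx3l and Parp14 on chromosome 16.

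Levels of different genes can be compared only per length, for which the deposited FPKM were used. In WTSHAM, Ifitm3 was the most abundant of the 37 genes at 249.7 ± 70.9 FPKM. Bst2 (95.4 ± 21.2) and Ifngr2 (95.1 ± 6.88) came next and did not differ beyond their spread, followed by Irf7 at 68.8 ± 29.2 FPKM. In WTCKD, Ifitm3 was still first at 128 ± 16.7 FPKM, but the receptor and kinase genes Ifngr2 (99.5 ± 4.07), Jak1 (46.4 ± 0.255) and Ifngr1 (32.4 ± 1.59) now came before all the other induced genes. Irf7 had gone from rank 4 to rank 7 (9.09 ± 0.817 FPKM) and Isg15 from rank 6 (30.9 ± 12.6) to rank 16 (5.48 ± 0.609). Oas3 was lowest in both groups, at 0.944 ± 0.336 and 0.108 ± 0.0258 FPKM.

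The sham hearts varied among themselves more than the CKD hearts in these genes. Over the 30 genes that were lower in WTCKD, the median SD of log2 CPM was 0.476 in WTSHAM, against 0.135 in WTCKD, 0.199 in WTCKD+RNLS, 0.176 in KOCKD and 0.256 in KOCKD+RNLS. The median SD over all genes was 0.156, 0.132, 0.186, 0.140 and 0.114 in the same order, so KOCKD+RNLS too was more spread in these genes than in genes at large. WTSHAM replicate 2 was highest of its group in 22 of the 30 genes and replicate 3 lowest in 24. Over the 37 genes, the median log2 CPM relative to the WTCKD mean was 1.32, 1.71 and 0.94 in WTSHAM replicates 1 to 3. The 9 libraries of the other CKD groups had medians between -0.20 and 0.16, so even the lowest sham heart stood apart from them.

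Single libraries decided some calls in WTCKD against WTSHAM. Leaving out 1 library at a time gave 23 to 31 of the 37 genes, with 25 without WTSHAM replicate 2 and 23, 25 and 25 without WTCKD replicates 1, 2 and 3. Without WTSHAM replicate 2 the median log2 fold change was -1.13. A total of 21 of the 30 calls held under every alternative tried. The other 9 were Irf1, Usp18, Rsad2, Oasl1, Dhx58, Ifitm3, Parp9, Trim25 and Samhd1, with adjusted p-values of up to 0.119, 0.0868, 0.0855, 0.058, 0.103, 0.077, 0.0565, 0.103 and 0.094 in that order. Usp18, Rsad2, Dhx58, Trim25 and Samhd1 lost their call without WTSHAM replicate 2, while Ifitm3 and Parp9 lost it only when the other 3 groups were left out of the fit.

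The other CKD groups stood at a like distance from sham, in comparisons that share the same 3 WTSHAM libraries. In KOCKD, 30 of the 37 genes were lower than in WTSHAM and 0 higher (8.35% of all genes were lower), with a median log2 fold change of -1.52. In WTCKD+RNLS, 30 were lower and 0 higher (4.81% of all genes lower), with a median of -1.44. In KOCKD+RNLS, 28 were lower (6.34% of all genes) and 2 were higher (4.78% of all genes), with a median of -1.21. Without Oas3, 29 of 36 genes were lower in KOCKD (median -1.46), 29 of 36 in WTCKD+RNLS (median -1.43) and 27 of 36 in KOCKD+RNLS (median -1.19). The 2 higher genes were Ifngr2 (0.45 ± 0.10, adjusted p = 0.00928) and Jak1 (0.39 ± 0.08, adjusted p = 0.00616), and the call of Ifngr2 was lost without KOCKD+RNLS replicate 3 (adjusted p = 0.0658). In all, 28 genes, Oas3 among them, were lower in each of the 4 CKD groups, and Oasl1 and Xaf1 were lower in all but KOCKD+RNLS. There Oasl1 had an adjusted p of 0.0656, with a highest library of 6.83 CPM above the lowest sham library of 5.67, and Xaf1, at 21.9, 31.8 and 28.9 CPM, overlapped with the sham values of 24.8, 53.2 and 26.4. Dtx3l, Ifnar1, Ifnar2, Ifngr1, Ifngr2, Jak1 and Tyk2 were lower in none of the 4 groups. Bst2 illustrates the range, with log2 fold changes of -1.80 ± 0.19 in WTCKD, -2.0 ± 0.19 in KOCKD, -2.37 ± 0.20 in WTCKD+RNLS and -2.48 ± 0.20 in KOCKD+RNLS. Irf7 lay at -2.90, -3.0, -2.90 and -2.76 in the same order.

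**Figure D3:**
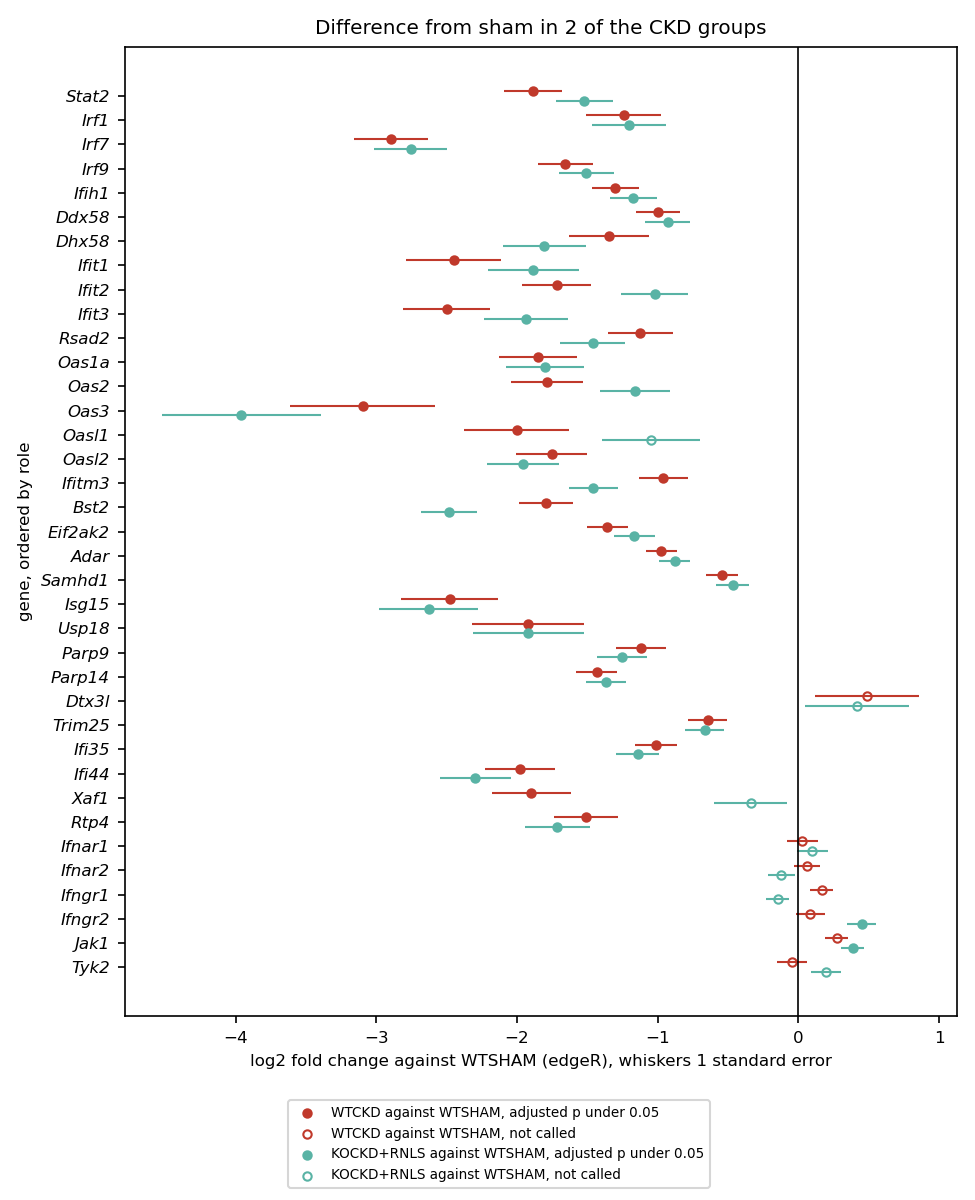
Log2 fold changes against WTSHAM (horizontal axis, whiskers 1 SE) are shown for the 37 genes in WTCKD and KOCKD+RNLS, with filled points at an adjusted p under 0.05. Nearly all points of the induced genes lie left of 0 in both groups, Xaf1, Ifit2 and Oasl1 lie closer to 0 in KOCKD+RNLS, and the 6 receptor and kinase genes stand within 0.5 of 0. Both groups share their sham libraries.

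The renalase virus moved few of these genes against vector. In wild-type CKD hearts (WTCKD+RNLS against WTCKD), 1 of the 37 genes was lower and 0 higher, against 2.28% of all genes that were lower, so the count is near the background. That gene was Jak1, at 187, 226 and 205 CPM with the virus and 266, 259 and 277 with the vector. No library of one group reached the other, and the log2 fold change was -0.38 ± 0.08 (1.30-fold lower, adjusted p = 0.0161). Its call was lost without any one of WTCKD replicates 1, 2 and 3 or WTCKD+RNLS replicates 1 and 3, with adjusted p-values of up to 0.0808. Bst2 (-0.57 ± 0.20, adjusted p = 0.123), Ifitm3 (-0.46 ± 0.18, adjusted p = 0.157) and Ifngr1 (-0.28 ± 0.08, adjusted p = 0.0691) had an unadjusted p under 0.05 only, all with lower values under the virus. The median log2 fold change over the 37 genes was -0.11. Endothelial markers moved in the same comparison, with 4 of 6 lower and sums of 900.3 to 958 CPM with the virus against 1230.4 to 1395 with the vector, and 1 of 7 cardiomyocyte markers (Ttn) was higher. Of 6 fibroblast markers, 1 (Col1a1) was lower. The cardiomyocyte sums of the 2 groups did not overlap, and the part of these shifts in the Jak1 result was not tested.

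In knockout CKD hearts (KOCKD+RNLS against KOCKD), 4 of the 37 genes were higher with the virus and 0 lower. Over all genes 9.05% were higher, so 4 of 37 is also near the background, which itself moved from 1178 genes to between 580 and 1006 when 1 library was left out. Xaf1 stood at 21.9, 31.8 and 28.9 CPM with the virus and 18.9, 10.7 and 9.99 with the vector (1.06 ± 0.27 on the log2 scale, 2.09-fold, adjusted p = 0.0176). Ifit2 had 43.4, 29.2 and 21.8 against 20.8, 13.8 and 19.5 CPM (0.80 ± 0.25, adjusted p = 0.0385). Oasl1 had 6.83, 5.29 and 3.19 against 2.80, 1.58 and 2.01 CPM (1.26 ± 0.39, adjusted p = 0.0404). For Xaf1, Ifit2 and Oasl1 alike, the groups did not overlap. The virus libraries were widely spread for Ifit2 and Oasl1, while for Xaf1 KOCKD replicate 1 (18.9 CPM) stood well above the other vector libraries. Adar, at 31.4, 29.1 and 23.9 against 21.7, 21.2 and 23.4 CPM, had 23.9 and 23.4 as its nearest values (0.35 ± 0.11, adjusted p = 0.047). KOCKD+RNLS replicate 1 was the highest of its group in 25 of the 30 genes that were lower in WTCKD, and replicate 3 the lowest in 25. Without KOCKD+RNLS replicate 1 only Xaf1 was called (adjusted p = 0.0246), without replicate 2 none was, and without replicate 3 Xaf1 was lost while Ifit1 was gained (1.14, adjusted p = 0.0476). No gene was called without KOCKD replicate 2 or without KOCKD replicate 3, and without KOCKD replicate 1 Oasl1 and Xaf1 were. The median log2 fold change over the 37 genes was 0.24, and 12 of them had lower values with the virus. In the same comparison 3 of 7 cardiomyocyte markers were higher (Myh6, Ttn and Ryr2). The other 4 had lower values that did not pass, and the median log2 fold change of the 7 was -0.05. Of the other markers tested, 2 of 10 macrophage markers and 3 of 4 atrial markers were lower. So were 1 of 6 endothelial markers (Pecam1) and 1 of 6 fibroblast markers (Col1a1). The part of all these markers in the values above was not tested.

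**Figure D4:**
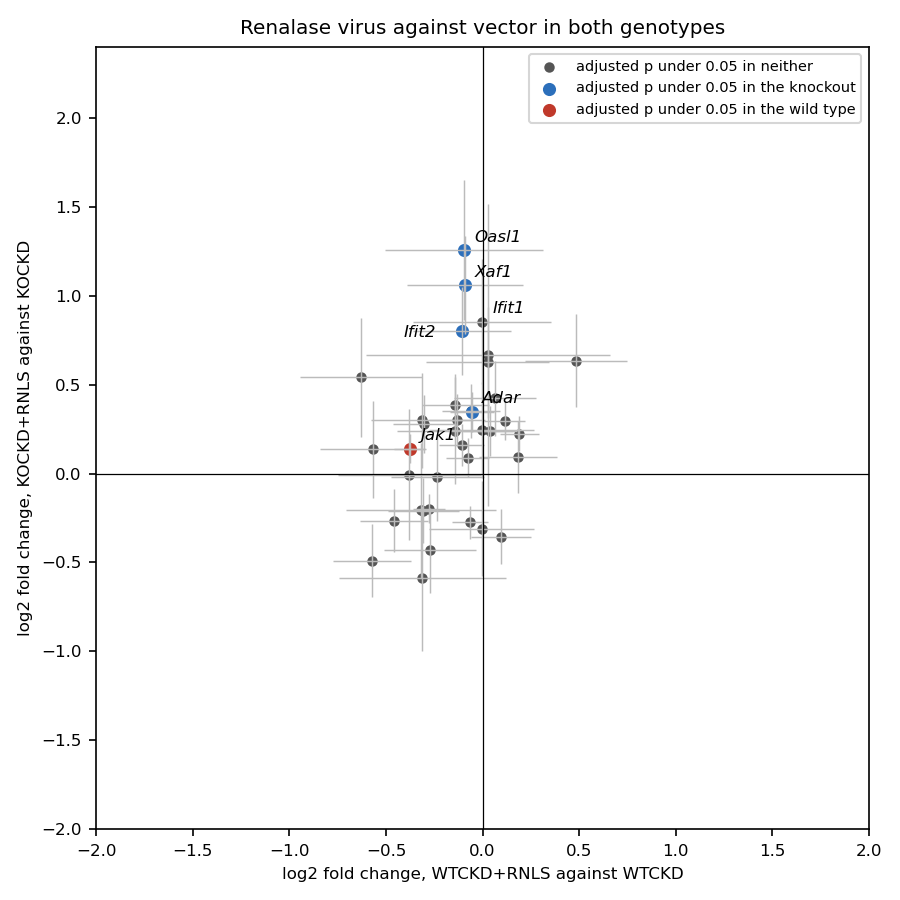
Each point is 1 of the 37 genes, with the log2 fold change of virus against vector in wild-type CKD hearts on the horizontal axis and in knockout CKD hearts on the vertical axis, and grey lines of 1 SE. Most points lie within 0.6 of 0 on both axes. Xaf1, Oasl1 and Ifit2 stand high at horizontal values near 0, and Jak1 stands to the left.

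The genotype comparison under vector (KOCKD against WTCKD) called 0 of the 37 genes by edgeR, and 0 of all 13021 genes. At an unadjusted p under 0.05 there were 1318 genes in all, DESeq2 called 9 genes in all, and DESeq2 called 0 of the 37. Of the 37, 2 were lower at an unadjusted p under 0.05, against 5.64% of all genes, and 0 were higher. These were Dhx58, at 1.14, 1.86 and 1.93 CPM in KOCKD and 3.72, 3.12 and 3.06 in WTCKD (-1.0 ± 0.33, adjusted p = 0.444), and Adar (-0.25 ± 0.11, adjusted p = 0.487). The median log2 fold change over the 37 genes was -0.10.

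The difference of the virus effect between genotypes was tested in the same fit. The test called 0 of the 37 genes and 0 genes in all by edgeR, while 2288 genes had an unadjusted p under 0.05 and DESeq2 called 362. Of the 37, 9 had a more positive signed effect in the knockout than in the wild type at an unadjusted p under 0.05 (Jak1, Xaf1, Ifit2, Dhx58, Adar, Ddx58, Oasl1, Ifih1 and Parp14), against 7.69% of all genes. For Dhx58 the values had opposite signs, at -0.63 in wild type and 0.54 in the knockout, neither of which passed the test. Jak1 had the largest evidence, with a difference of 0.51 ± 0.11 (adjusted p = 0.113), and it was the 1 gene of the 37 that DESeq2 called (adjusted p = 0.00479). The median difference was 0.27 over the 37 genes and 0.01 over all genes. All 37 values come from the same 12 libraries, so they are not independent measurements.

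Taken over all 5 groups at once, 33 of the 37 genes differed between groups, against 22.2% of all genes. Oas3, which had to differ, was among the 33. The 4 that did not pass were Ifnar1, Ifnar2, Tyk2 and Dtx3l.

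Genes of the same pathway beside the 37 were read from lists in the same fit. Of 33 other interferon-stimulated genes tested, 23 were lower in WTCKD than in WTSHAM and 0 higher, against 1.70% of all genes lower. Their median log2 fold change was -1.14. Rnf213, a ubiquitin ligase, went from 187 ± 45.4 to 67.6 ± 6.95 CPM (-1.47 ± 0.17, adjusted p = 0.000251). Psmb8, a subunit of the immunoproteasome, went from 31.6 ± 10.4 to 15.6 ± 4.79 CPM (-1.02 ± 0.22, adjusted p = 0.0201). Ifitm2 did not pass (72.0 ± 7.28 and 72.8 ± 3.07 CPM, adjusted p = 0.953). In KOCKD, WTCKD+RNLS and KOCKD+RNLS, 27, 29 and 28 of the 33 were lower than in WTSHAM, against 8.35%, 4.81% and 6.34% of all genes. Against vector, 0 of the 33 differed with the virus in wild-type hearts, and 2 were higher in knockout hearts, Rnf213 (0.78 ± 0.17, adjusted p = 0.00713) and Helz2 (0.62 ± 0.16, adjusted p = 0.0173). Over all genes 9.05% were higher in the knockout comparison, so 2 of 33 is not above the background.

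Of all genes tested, 1.70% were lower in WTCKD than in WTSHAM. Of 16 genes tested that sense nucleic acids or induce interferon, 1 was lower and 0 higher. It was Zbp1, the sensor of Z-form nucleic acid, which is itself induced by interferon and went from 13.7 ± 6.04 to 2.09 ± 0.414 CPM (-2.70 ± 0.37, adjusted p = 0.00116). Tlr3, the endosomal receptor of double-stranded RNA, had 20.6 ± 3.19 and 15.7 ± 1.85 CPM (adjusted p = 0.128). In KOCKD, 3 of the 16 were lower than in WTSHAM (Tlr3, Tlr9 and Zbp1), against 8.35% of all genes. In WTCKD+RNLS, 2 were lower (Tlr3 and Zbp1), against 4.81% of all genes. There 1 was higher (Ticam1), against 375 of 13021 genes. In KOCKD+RNLS, 6 were lower (Irf5, Tlr7, Tlr8, Tlr9, Myd88 and Zbp1), against 6.34% of all genes. Ticam1 was higher there too, against 4.78% of all genes. The share lower over all genes thus also rose from WTCKD to these groups. Against vector, Tlr7 was lower with the virus in the knockout, where 917 of 13021 genes were lower, and 0 of the 16 differed in wild type. On a list of 14 genes taken as negative regulators, 1 was lower in WTCKD (against the same 1.70% of all genes) and 0 higher. It was Isg20 (5.84 ± 2.14 to 2.45 ± 0.601 CPM, -1.25 ± 0.31, adjusted p = 0.0455). Its product is an RNA exonuclease, and it is itself an interferon-stimulated gene rather than a regulator of the signal. No other gene of that list passed the test in WTCKD. In KOCKD, 4 were lower than in WTSHAM (Ptpn1, Ptpn6, Ptpn11 and Isg20), against 8.35% of all genes. Ptpn6 was also lower in WTCKD+RNLS and KOCKD+RNLS, and Pias2 higher in KOCKD+RNLS. Pias2 was higher with the virus in wild type (0.36 ± 0.10, adjusted p = 0.0474, with 285 of 13021 genes higher). It was also higher in the knockout (0.40 ± 0.10, adjusted p = 0.0135, with 9.05% higher). There Ptpn2 was lower (-0.84 ± 0.22, adjusted p = 0.0196, with 917 genes lower). The median log2 fold changes in WTCKD were -0.22 over the sensing genes and -0.14 over the list of 14, Isg20 included.

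Markers of other cell types moved with the groups in part. The 10 macrophage markers of the table summed to 573 to 743 CPM in WTSHAM and to 438 to 594 in WTCKD, so these groups overlapped. They summed to 405 to 440.2 CPM in WTCKD+RNLS, 397 to 478 in KOCKD and 297 to 389 in KOCKD+RNLS, all below WTSHAM. In WTCKD against WTSHAM all 10 had lower values, 1 passed the test (Fcgr1) and the median log2 fold change was -0.39, against -1.36 for the 37 genes. In WTCKD+RNLS, KOCKD and KOCKD+RNLS, 7, 9 and 9 of the 10 were lower than in WTSHAM. None of the 10 was at 0 in all libraries of a group, and their part in the result was not tested. The 6 fibroblast markers summed to 1192 to 1627 CPM in WTSHAM and 940.1 to 1435 in WTCKD, and the 6 endothelial markers to 1102 to 1332 and 1230.4 to 1395. For these 12 markers 0 passed the test in WTCKD. In KOCKD, WTCKD+RNLS and KOCKD+RNLS, 3, 2 and 3 fibroblast markers were lower than in WTSHAM, with sums of 849 to 1090.0, 791 to 988 and 773 to 882 CPM. In the same order 1, 4 and 2 endothelial markers were lower, with sums of 1089 to 1286, 900.3 to 958 and 1032 to 1047 CPM. Their part in the results of these groups was not tested. Markers of T cells (6), NK cells (4), B cells (4) and neutrophils (5) summed to at most 16 CPM in any library, in overlapping ranges, and the neutrophil marker Ly6g was at or near 0. The 4 plasmacytoid dendritic cell markers summed to 1511 to 2486 CPM, nearly all of it from Cox6a2, a subunit of cytochrome c oxidase that heart muscle also makes. The sum was 1511 to 1797 CPM in WTSHAM and 1761 to 1916 in WTCKD, and Cox6a2 was higher in KOCKD than in WTSHAM. The other 3 (Siglech, Ccr9 and Ly6d) had 0 to 0.967 CPM together per library. The 3 erythrocyte markers of the table summed to 19.5 to 199 CPM in WTSHAM and 11.1 to 35.5 in WTCKD. They summed to 66.5 to 153 CPM in WTCKD+RNLS, above WTCKD without overlap, but 0 passed the test in that comparison. The sums were 15.4 to 133 CPM in KOCKD and 23.1 to 91.3 in KOCKD+RNLS. The 5 atrial markers varied from 84.7 to 2649 CPM between single libraries, with overlapping groups. The part of the erythrocyte and atrial markers in the results was not tested.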

How the data were processed

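Reads were from hearts, 1 library per mouse. The authors trimmed them with Trimmomatic, mapped them with hisat2, used htseq-count to obtain gene counts and cufflinks to obtain FPKM, and deposited both, the counts without normalization. The methods name the build mm9 and the submitters' processing notes name GRCm39, so no gene coordinates of the files are given. Tool versions, annotation and the strand option are not given in the sources used here. The deposited FPKM matched the counts once scaled by 1 length per gene and by library total.

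Statistics used the counts with R 4.3.3, edgeR 4.0.16 and limma 3.58.1. TMM scaling and the default filter (minimum count 10, total 15) left 13021 of 17147 genes with a count, and the quasi-likelihood model held the group and no covariate and used all 15 libraries (common biological coefficient of variation 0.132). All 37 genes passed this filter. Genes were called at a Benjamini-Hochberg adjusted p under 0.05 over all genes tested. Exact tests were not used, since with 3 mice a side their smallest p is 0.1. The labels do not say whether replicates shared a litter or cage. The members, the pathway and marker lists and the comparisons were chosen with earlier results of these data known. All members were named, with values per library for the 10 with the smallest p over all groups. Alternatives were no filter, RLE size factors, a replicate block, only the groups compared, DESeq2 1.42.0, the call rule of the study (fold over 1.25 and unadjusted p under 0.05), offsets for gene length, leaving out each library, and all listed genes with a count. The code was tested on simulated counts. Promoters were RefSeq sequences of GRCm38.p6, gene neighbours and overlaps came from the mm9 annotation, and Python 3.11.15 with matplotlib 3.10.9 drew the figures.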

Additional observations from a re-analysis of the deposited data

Results flagged for a closer look

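The renalase effect on Jak1 had opposite signs in the 2 genotypes. All 3 WTCKD+RNLS libraries were below all 3 WTCKD libraries, and all 3 KOCKD+RNLS libraries (271, 288 and 308 CPM) were above all 3 KOCKD libraries (264, 265 and 258 CPM). The log2 fold changes were -0.38 ± 0.08 in wild type (adjusted p = 0.0161) and 0.14 ± 0.08 in the knockout (adjusted p = 0.255). Their difference of 0.51 had an unadjusted p of 0.000382 and an adjusted p of 0.113 by edgeR's quasi-likelihood test, so it missed the threshold, while DESeq2 gave an adjusted p of 0.00479. With 3 mice per group, the single-sample test for a value far from its group was not applied.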

How the results depend on the processing

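No call reversed its direction under any alternative. The counts against WTSHAM stayed within 1.5 times of the values reported, at 22 to 31 of 37 genes in WTCKD, 28 to 31 in KOCKD, 28 to 31 in WTCKD+RNLS and 28 to 31 in KOCKD+RNLS, and the test over all groups gave 31 to 34. Of the 30 genes called in each, 21, 28, 27 and 26 kept their call under every alternative, Oas3 among them each time. The virus comparisons were less firm. WTCKD+RNLS against WTCKD called 3 genes by the rule of the study (Jak1, Bst2 and Ifitm3, all lower, against 8.09% of all genes lower), 2 with the replicate block (Jak1 and Bst2), 0 with only the groups compared, and 0 to 2 when 1 library was left out. KOCKD+RNLS against KOCKD called 10 by the rule of the study (2 lower and 8 higher, against 10.1% and 12.2% of all genes), 14 with only the groups compared (3 lower and 11 higher, against 1459 and 1656 of all genes) and 0 to 4 when 1 library was left out. Offsets for gene length called 3 there (Xaf1 and Ifngr2 higher, Ifnar2 lower), of which 1 was shared. KOCKD against WTCKD called 1 by the rule of the study (Dhx58, lower, against 3.68% of all genes). The difference of the virus effect called 9 by the rule of the study (all higher, against 6.78% of all genes) and 1 by DESeq2 (Jak1). The causes were not tested.

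The background also depended on the setting. In WTCKD against WTSHAM, 221 of all genes were lower in the fit reported, 80 with only the groups compared, 365 by DESeq2, 150 without WTSHAM replicate 2 and 108, 135 and 118 without WTCKD replicates 1, 2 and 3. In KOCKD+RNLS against KOCKD, 1178 genes were higher, 1656 with only the groups compared, 396 with offsets for gene length, 826, 580 and 1006 without KOCKD replicates 1, 2 and 3, and 739, 617 and 822 without KOCKD+RNLS replicates 1, 2 and 3. In KOCKD against WTSHAM, 1087 were lower, 639 with these offsets and 772 with only the groups compared. In WTCKD+RNLS against WTSHAM, 626 were lower, and 249 with only the groups compared. In WTCKD+RNLS against WTCKD, 297 were lower, 205 with only the groups compared and 119 to 278 when 1 library was left out.

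Replicate numbers did not pair the libraries. Over 30 pairs of libraries with the same number in 2 groups, the correlation of deviations from the group means ran from -0.36 to 0.33, and 5 were over 0.1. With the replicate block the counts were 30, 30, 30 and 30 against WTSHAM and 5 in KOCKD+RNLS against KOCKD, with Bst2 gained as lower. With 3 mice per group and counts under 10 per CKD library for Oas3, small differences in low genes were not detectable at this depth.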
